A study of Mus musculus with 6 samples.

Results

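The BCL2 family decides whether the outer mitochondrial membrane stays intact, and 10 of its survival and death genes are described here in mouse macrophages given stearic acid. They were chosen by name and role, with no threshold on their values: the survival genes Bcl2, Bcl2l1 and Mcl1, the effectors Bax and Bak1, the BH3-only genes Bid, Bcl2l11, Bbc3 and Pmaip1, and Bnip2. Earlier results of these data were known when these genes were chosen. All 10 were found among the 36333 genes that each library lists. The cells were bone marrow derived macrophages of C57BL/6 mice, differentiated in M-CSF at 10 ng/mL for 7 days and replated at 250000 cells per well. In the stearic acid group 3 samples received 100 µM stearic acid, and in the vehicle group 3 samples received an equal volume of ethanol, each for 24 h. No genotype, transgene or other agent differed between the groups, and what is measured is polyadenylated RNA, not protein, cell death or mitochondrial integrity. The labels number the replicates 1 to 3 without saying whether they were separate animals or cultures, and the p-values reflect no more than sample-to-sample spread, part or all of which may be technical.

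In the intrinsic pathway of apoptosis, BAX and BAK (the latter encoded by Bak1) form pores in the outer mitochondrial membrane and release cytochrome c, which activates caspases. BCL-2, BCL-XL (from Bcl2l1) and MCL-1 hold them in check by binding them and their activators. BH3-only proteins such as BIM (from Bcl2l11), PUMA (from Bbc3), NOXA (from Pmaip1) and BID carry stress signals to the family, and much of their control is through transcription. A1 proteins are further survival members of the family, and saturated fatty acids can be toxic to cells through lipid overload and endoplasmic reticulum stress.

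Levels are in TPM (transcripts per 1000000, so that every library has the same total and genes can be compared per length), as the authors deposited them. In units of 1000000 reads or read pairs, library depth worked out from the RPKM steps ranged from 58.1 to 80.7. The macrophage markers were abundant, with 8 of 8 at a mean of at least 1 TPM and a summed level of 32909 to 33823 TPM in vehicle and 23256 to 28903 TPM in stearic acid. Most of that sum was Lyz2, at 25775 to 27176 TPM in vehicle and 17694 to 22360 TPM in stearic acid. Adgre1, Itgam, Cx3cr1 and Fcgr1 were also lower in every stearic acid library than in any vehicle library, while the groups overlapped for Csf1r and Mertk. Cd68 alone went the other way, from 1971 to 2024 TPM in vehicle to 2313 to 2544 TPM in stearic acid. Of the markers of other cells, S100a8 alone reached a mean of 1 TPM. The 8 neutrophil and progenitor markers summed to 2.50 to 4.75 TPM in vehicle and 6.40 to 7.22 TPM in stearic acid. S100a8 made up most of each sum, S100a9 reached 0.715 TPM in vehicle replicate 2, and Ly6g, Mpo and Elane were at 0.0822 TPM or below in every library. The dendritic, lymphoid, stromal, erythroid and mast cell lists each summed to 2.88 TPM or less, with Cd3e, Ncr1, Hbb-bs, Mcpt4 and Tpsb2 at 0 in all 6 libraries. Whether these shifts in marker levels have a part in the results below was not tested, and in bulk RNA fewer cells of a type and less RNA per cell cannot be told apart.

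Stearic acid replicate 1 stood apart from the other stearic acid libraries and lay nearer to vehicle. Over the genes called between the groups, its median absolute log2 change from the vehicle mean was 0.285, against 0.601 in replicate 2 and 0.425 in replicate 3. Of the 10 members, 40%, 80% and 70% lay outside the range of the 3 vehicle libraries in stearic acid replicates 1, 2 and 3. Over all 11551 tested genes, 61.6%, 79.9% and 71.9% lay outside the vehicle range in replicates 1, 2 and 3, so the order of the libraries was the same. The value of each member and the counts of each related list are therefore given with and without stearic acid replicate 1.

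With all 6 libraries, 0 of the 10 genes passed the test between stearic acid and vehicle, whereas 24.7% of all tested genes passed. The test was limma with an intensity-dependent prior on log2(TPM + 1), with Benjamini-Hochberg adjustment over the 11551 genes whose mean reached 1 TPM, which included all 10, and a threshold of 0.05. At an unadjusted p under 0.05 there were 3, Bcl2, Bcl2l1 and Pmaip1, where 40.4% of tested genes reached that level. Bcl2l1 was the single member whose groups did not overlap, where 44.6% of tested genes had groups that did not overlap, 22.8% with stearic acid higher and 21.7% with it lower. The median log2 fold change was 0.04 over the members and -0.03 over all tested genes. Without stearic acid replicate 1, 6 of the 10 passed, 3 higher (Bcl2, Bcl2l1 and Bak1) and 3 lower (Bcl2l11, Bbc3 and Pmaip1), where 43.4% of tested genes passed, 19.2% higher and 24.1% lower. That fit keeps the stearic acid libraries with the larger responses and drops the spread that replicate 1 adds, so its calls are not independent support. In the other 5 fits that left out 1 library, 0 of the 10 passed. Those fits called 384 to 1059 of all tested genes higher and 142 to 938 lower, against 1482 and 1374 with all 6 libraries. Fewer genes passed throughout, so the 0 is not a result about the members.

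**Figure D1:**
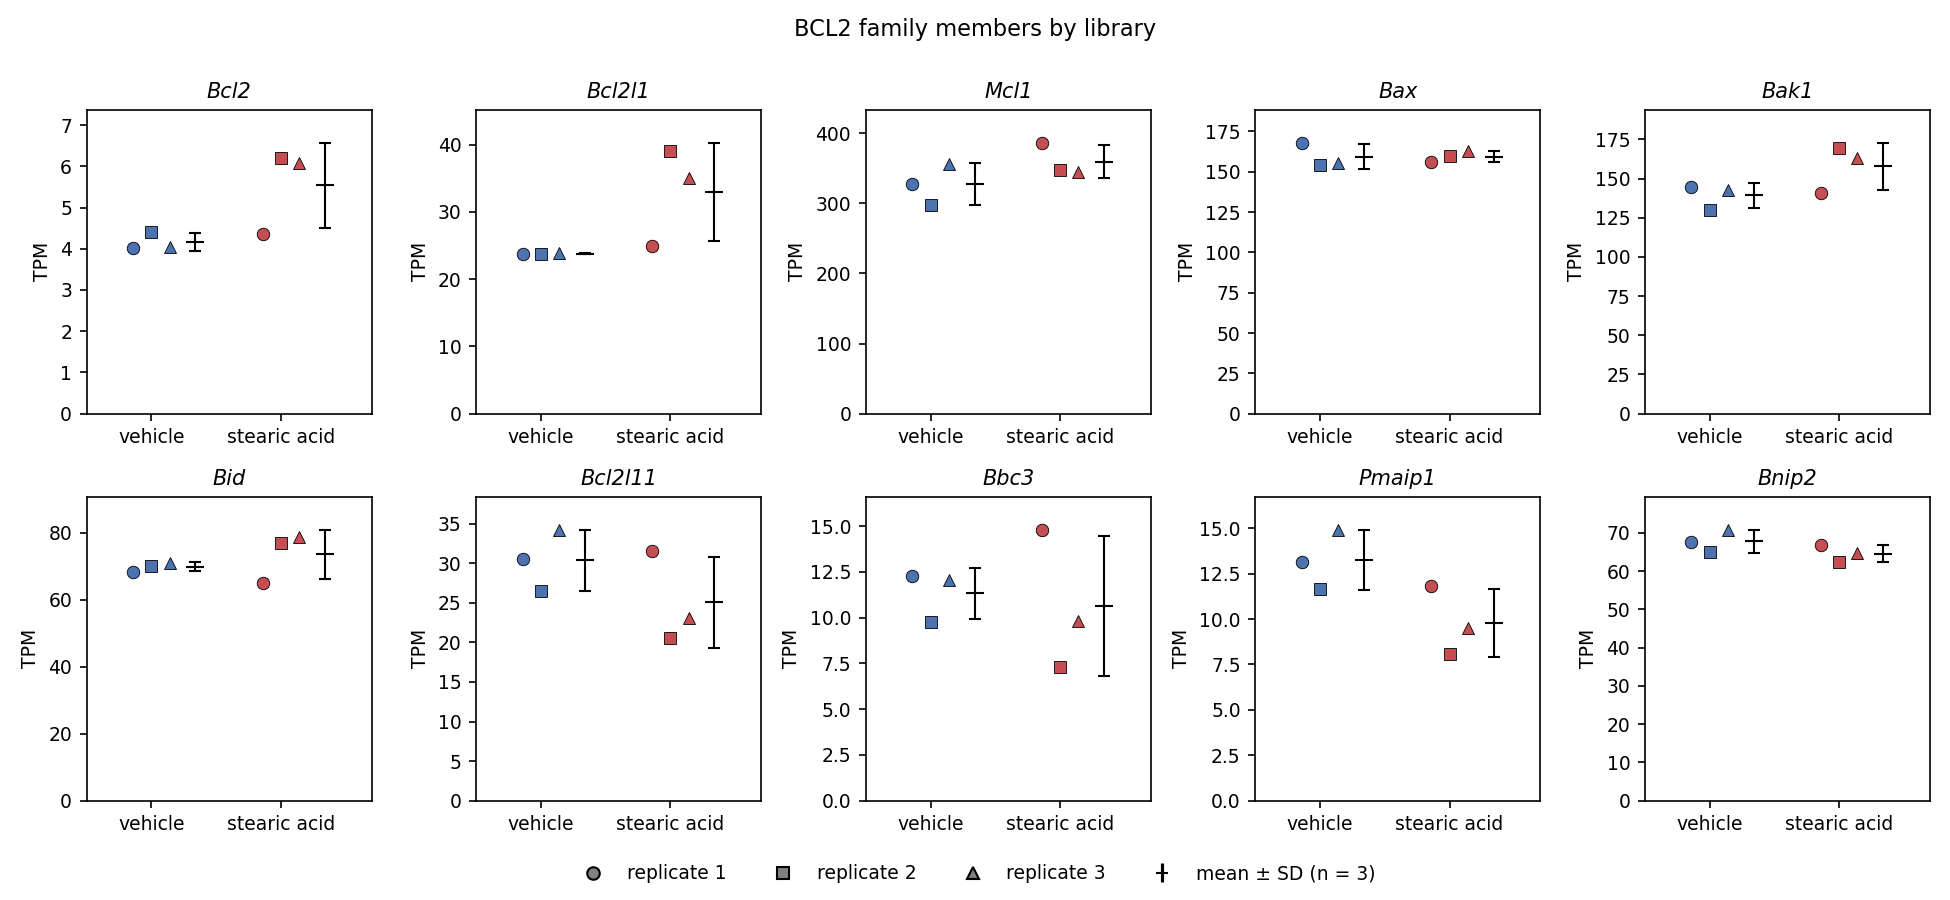
TPM of each of the 10 genes in every library, with symbols for the replicate number and the mean ± SD of 3 libraries beside each group; the vertical axes start at 0. In Bcl2, Bcl2l1, Bcl2l11 and Pmaip1 stearic acid replicates 2 and 3 sit apart from the vehicle libraries, while replicate 1 sits at 4.35, 24.9, 31.6 and 11.8 TPM, close to them.

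Among the survival genes, Mcl1 was by far the most abundant. Mcl1 (NCBI gene 17210, chromosome 3, 95656944 to 95663179, RefSeq coordinates of GRCm38.p6 here and below), which encodes a short-lived guardian of the mitochondrial membrane, lay above 96.2% of tested genes in vehicle. It was at 328, 297 and 356 TPM in vehicle replicates 1 to 3 and at 386, 347 and 344 TPM in stearic acid replicates 1 to 3. The groups overlapped, and here replicate 1 was the highest stearic acid library. The log2 fold change of Mcl1 was 0.14 (SE 0.08, 95% interval -0.05 to 0.32, limma adjusted p = 0.25), and without stearic acid replicate 1 it was 0.08 (adjusted p = 0.44).

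Bcl2l1 (gene 12048, chromosome 2, 152758732 to 152833803), which encodes the long-lived survival protein BCL-XL and, by splicing, a shorter form with the opposite effect, had the largest log2 difference of the 10 in size. It was at 23.8, 23.7 and 23.9 TPM in vehicle and at 24.9, 39.1 and 35.0 TPM in stearic acid. The vehicle libraries were nearly equal (SD 0.0659 TPM), replicate 1 of stearic acid lay just above them, and replicates 2 and 3 lay at 164% and 147% of the vehicle mean. The log2 fold change of Bcl2l1 was 0.43 (SE 0.14, 95% interval 0.11 to 0.75, limma adjusted p = 0.053), larger in size than that of 86.0% of tested genes but not past the threshold. Without stearic acid replicate 1 it was 0.62 (adjusted p = 5.2e-05). Values per gene do not separate its splice forms.

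Bcl2 (gene 12043, chromosome 1, 106538176 to 106714290), the founding member of the family, was the least abundant of the 10. It was at 4.01, 4.41 and 4.04 TPM in vehicle and at 4.35, 6.20 and 6.08 TPM in stearic acid, on 77.2 to 170.8 reads per kilobase. Replicate 1 of stearic acid lay within the vehicle range and the others above it. The log2 fold change of Bcl2 was 0.33 (SE 0.12, 95% interval 0.05 to 0.61, limma adjusted p = 0.077), and without stearic acid replicate 1 it was 0.47 (adjusted p = 0.0017). The pattern over libraries was thus like that of Bcl2l1, at a level several times lower, whereas Mcl1 had none of it.

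The effectors were abundant, and Bax was nearly level. Bax (gene 12028, chromosome 7, 45461695 to 45466903), which moves from the cytosol to mitochondria when activated, was at 168, 154 and 155 TPM in vehicle and at 156, 159.6 and 163 TPM in stearic acid. All 3 stearic acid libraries lay within the vehicle range. Its log2 fold change was 0.00 (0.00304 before rounding, SE 0.06, limma adjusted p = 0.98), with a 95% interval of -0.14 to 0.15, and without stearic acid replicate 1 it was 0.02 (adjusted p = 0.86). Of the 10 genes Bax had the smallest difference, in size above that of 1.04% of tested genes, and its sign depended on which library was left out.

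Bak1 (gene 12018, chromosome 17, 27019812 to 27028627), the effector that sits in the mitochondrial membrane from the start, was at 145, 130.0 and 143 TPM in vehicle. In stearic acid it was at 141, 169.7 and 163 TPM, so that replicates 2 and 3 lay above every vehicle library and replicate 1 among them. For Bak1 the log2 fold change was 0.18 (SE 0.09, 95% interval -0.02 to 0.37, limma adjusted p = 0.15). Without stearic acid replicate 1 it was 0.26 and passed (adjusted p = 0.015). The ratio of Bax to Bak1 in TPM was 1.09 to 1.19 in vehicle and 1.11, 0.940 and 0.998 in stearic acid replicates 1, 2 and 3. Bak1 overlaps Ggnbp1, which was listed at a mean of 1.14 TPM, the highest of the genes that overlap a member and have a value.

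The BH3-only genes did not move as a block. Bid (gene 12122, chromosome 6, 120893119 to 120917062), whose protein is cleaved by caspase-8 to link death receptors to mitochondria, was at 68.3, 70.2 and 71.1 TPM in vehicle and at 65.0, 76.9 and 78.6 TPM in stearic acid. Replicate 1 of stearic acid lay below the vehicle range and replicates 2 and 3 above it. Bid differed by a log2 fold change of 0.07 (SE 0.08, 95% interval -0.12 to 0.26, limma adjusted p = 0.57), and without stearic acid replicate 1 it was 0.15 (adjusted p = 0.12). Bid was the most abundant BH3-only gene of the 4, with 53.7% to 59.5% of their summed TPM in vehicle.

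Bcl2l11 (gene 12125, chromosome 2, 128126038 to 128162547) encodes BIM, a strong activator of BAX and BAK that growth factor withdrawal raises through FOXO factors. It was at 30.5, 26.5 and 34.2 TPM in vehicle and at 31.6, 20.6 and 23.0 TPM in stearic acid. Replicate 1 of stearic acid lay within the vehicle range, and replicates 2 and 3 lay below it, at 67.8% and 75.7% of the vehicle mean. The log2 fold change of Bcl2l11 was -0.28 (SE 0.15, 95% interval -0.63 to 0.06, limma adjusted p = 0.19), and without stearic acid replicate 1 it was -0.46 (adjusted p = 0.0028).

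Pmaip1 (gene 58801, chromosome 18, 66458604 to 66465558) encodes NOXA, which binds MCL-1 and favours its breakdown. It was at 13.2, 11.6 and 14.9 TPM in vehicle and at 11.8, 8.05 and 9.50 TPM in stearic acid. The groups overlapped by stearic acid replicate 1 alone, which lay just above the lowest vehicle library. Pmaip1 had a log2 fold change of -0.41 (SE 0.14, 95% interval -0.72 to -0.10, limma adjusted p = 0.055). Leaving out stearic acid replicate 1 took it to -0.54 (adjusted p = 0.0014). It passed as lower with median-of-ratios scaling (limma adjusted p = 0.042) and with RPKM in place of TPM (0.049).

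Bbc3 (gene 170770, chromosome 7, 16308398 to 16318334) encodes PUMA, a p53 target that binds every survival protein of the family. It was at 12.2, 9.74 and 12.04 TPM in vehicle and at 14.8, 7.31 and 9.83 TPM in stearic acid. The stearic acid libraries spread to both sides of vehicle, with replicate 1 at 131% and replicate 2 at 64.5% of the vehicle mean. On the log2 scale Bbc3 differed by -0.13 (SE 0.20, 95% interval -0.59 to 0.33, limma adjusted p = 0.66), the widest interval of the 10. Leaving out stearic acid replicate 1 gave -0.37 (adjusted p = 0.025), and leaving out replicate 2 of that group gave 0.09 (adjusted p = 0.71), so that the direction for Bbc3 rests on single libraries.

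Bnip2 (gene 12175, chromosome 9, 69989438 to 70011659), found as a partner of BCL-2 and of a viral relative but not a BCL2 homologue, was at 67.7, 64.9 and 70.9 TPM in vehicle. In stearic acid it was at 66.7, 62.3 and 64.6 TPM, with replicate 1 within the vehicle range and replicates 2 and 3 below it. Bnip2 had a log2 fold change of -0.07 (SE 0.07, 95% interval -0.22 to 0.08, limma adjusted p = 0.46). Leaving out stearic acid replicate 1 gave -0.09 (adjusted p = 0.36).

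**Figure D2:**
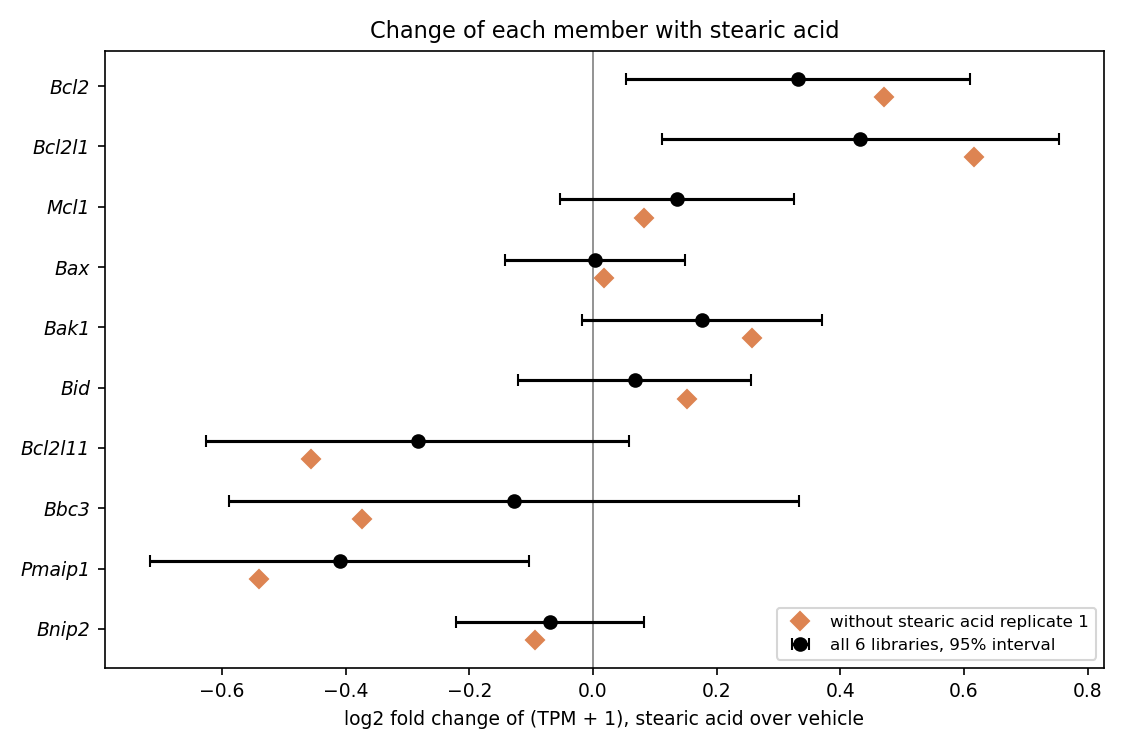
Log2 fold change of (TPM + 1) for each gene, stearic acid over vehicle, on the horizontal axis; black points and bars are the estimate and 95% interval from all 6 libraries, and diamonds are the estimate without stearic acid replicate 1. Without that library Bcl2l1 moves from 0.43 to 0.62 and Bcl2l11 from -0.28 to -0.46, while Bax stays near 0.

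**Figure D3:**
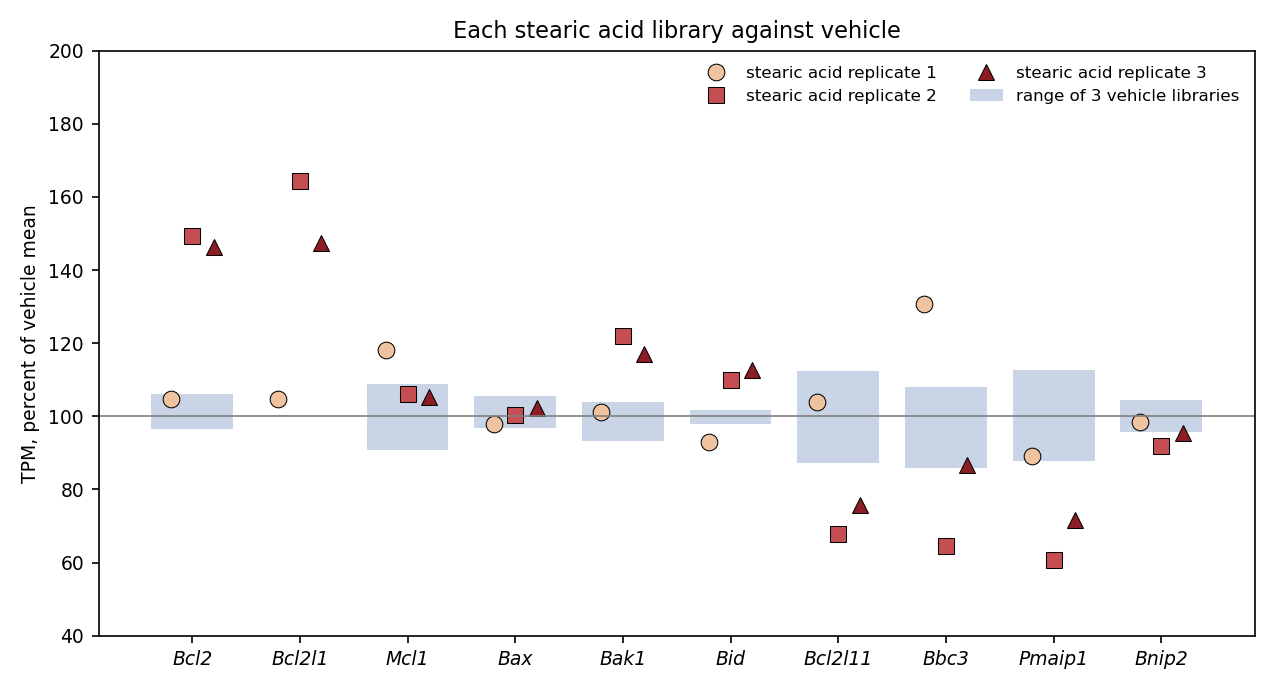
TPM of each stearic acid library as a percent of the vehicle mean, with the range of the 3 vehicle libraries as a band (too narrow to see for Bcl2l1) and an axis that starts at 40. Replicates 2 and 3 lie on the same side of the vehicle mean in all 10 genes, and replicate 1 lies on the other side in Bax, Bid, Bcl2l11 and Bbc3.

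Since TPM is per length, levels of the roles can be set side by side within a library, as a description with no test. The summed TPM of the 3 survival genes was 356, 325 and 384 in vehicle and 416, 392 and 385 in stearic acid, of which Mcl1 made up 88.5% to 93.0%. The summed TPM of Bax and Bak1 was 313, 284 and 298 in vehicle and 297, 329 and 326 in stearic acid. The 4 BH3-only genes summed to 124, 118 and 132 TPM in vehicle and to 123, 113 and 121 TPM in stearic acid. The ratio of BH3-only to survival TPM was 0.349, 0.363 and 0.344 in vehicle and 0.296, 0.288 and 0.314 in stearic acid, so the groups did not overlap. Among single tested genes 44.6% had groups that did not overlap, an unlike measure, and no such share was worked out for ratios. Bid and Mcl1, the largest parts of that ratio, each had groups that overlapped. Bax to Bcl2l1 did not overlap either, at 7.07, 6.49 and 6.51 in vehicle and 6.27, 4.08 and 4.64 in stearic acid, while Bax to Bcl2 and Bax to Mcl1 did. The survival to effector ratio did overlap, at 1.14, 1.15 and 1.29 in vehicle against 1.40, 1.19 and 1.18 in stearic acid. Bcl2l1 and Bcl2l11, a survival gene and a death gene whose products bind each other, had a TPM ratio of 0.779, 0.896 and 0.698 in vehicle and 0.789, 1.896 and 1.52 in stearic acid replicates 1, 2 and 3. Replicate 1 lay within the vehicle range of that ratio.

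Bcl2l1 and Bcl2l11 had the largest positive and the largest negative log2 differences among the members whose windows were searched. Pmaip1, at -0.41, was not searched. The promoters of Bcl2l1 and Bcl2l11 are shown for that reason, and they were chosen after the values of the genes were seen. Each is a RefSeq window of GRCm38.p6 from 250 bases before to 20 bases after a start, 5′ to 3′ on the gene's strand. The start is the most upstream of those with a window, which for Bcl2l1 lies inside the gene's span, whose upstream end is at 152833803. Capitals mark matches on either strand to the FOXO core GTAAACA, a loose NF-kB pattern (GGG, 5 of any base, CC), the AP-1 pattern TGANTCA or the CHOP and ATF4 composite core TGATGNAA.
Bcl2l1, chr2:152831709-152831978, minus strand: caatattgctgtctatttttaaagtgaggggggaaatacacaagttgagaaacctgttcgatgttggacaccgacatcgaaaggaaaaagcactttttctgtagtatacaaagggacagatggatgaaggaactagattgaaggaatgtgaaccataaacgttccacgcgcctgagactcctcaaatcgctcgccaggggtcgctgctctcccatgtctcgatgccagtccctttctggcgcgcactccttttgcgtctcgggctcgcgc
Bcl2l11, chr2:128125788-128126057, plus strand: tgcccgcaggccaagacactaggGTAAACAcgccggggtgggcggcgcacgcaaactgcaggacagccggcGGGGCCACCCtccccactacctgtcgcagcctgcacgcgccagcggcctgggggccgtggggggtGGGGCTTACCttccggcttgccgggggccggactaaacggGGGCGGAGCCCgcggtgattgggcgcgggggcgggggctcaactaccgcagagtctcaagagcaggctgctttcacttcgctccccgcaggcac

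The Bcl2l11 window holds a FOXO core that begins 227 bases before the start, and several NF-kB patterns, of which some overlap each other. The Bcl2l1 window shown holds none of these letters, while another of the 3 windows of Bcl2l1 holds 2 NF-kB matches. Over the whole windows, from 250 bases before to 50 after the start, 9 of the 10 members were searched, with 15 windows in all. Pmaip1 was not searched, as member windows on chromosome 18 were not used, a limit not set on the windows of all genes. The FOXO core was in a window of 2 of the 9, Bcl2l11 and Bbc3, and in 3.6% of all 32851 windows. The composite core was in 0 of the 9 and in 4.0% of all windows, and the AP-1 pattern was in 0 of the 9 and in 7.8%. The NF-kB pattern was in a window of 9 of the 9 and in 50.8% of all windows, and CATG, the core letters of a p53 site, was in 3 of the 9 and in 61.1%. The member counts are of genes with a match in any of their 1 to 3 windows, whereas the percentages are of single windows. The counts and percentages are therefore not on the same measure, and no excess or lack among the members can be read from them. A match is a description of letters, not a binding site.

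Beyond the members, 4 of 12 tested genes of the rest of the BCL2 family rose and 0 fell, with a median log2 fold change of 0.10. Of all tested genes 12.8% passed as higher and 11.9% as lower. This list and those below were chosen with earlier results of these data known. Their counts beside such shares are a description, not evidence of enrichment. The risers were Bcl2a1a and Bcl2a1d, copies of the A1 survival gene of blood cells, Bok, a BAX-like effector, and Bnip3, a mitophagy receptor. Bcl2a1a was at 0.996, 1.41 and 1.31 TPM in vehicle and at 2.28, 3.74 and 2.44 TPM in stearic acid (log2 0.75, SE 0.15, limma adjusted p = 0.012). Bok was at 0.601, 0.841 and 0.436 TPM in vehicle and at 1.07, 1.86 and 1.40 TPM in stearic acid (log2 0.58, SE 0.15, limma adjusted p = 0.023). In both genes every stearic acid library, replicate 1 included, lay above every vehicle library, at levels near the filter of 1 TPM. A gene near the filter could enter the test through the group where it is high, so these calls are not evidence about the list.

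Bnip3 rose from 42.1 ± 1.83 to 56.3 ± 9.74 TPM (SD, n = 3 per group), and Bcl2a1d from 9.51 ± 0.773 to 12.5 ± 1.57 TPM. Their log2 fold changes were 0.40 and 0.35 (limma adjusted p = 0.037 and 0.040). Of these 4 calls, 1 was left when vehicle replicate 1 was dropped and 0 when vehicle replicate 2 or 3 was dropped. Dropping stearic acid replicate 1, 2 or 3 left 4, 2 and 1. Over all tested genes the calls as higher went from 1482 to 684, 384 and 486 without vehicle replicates 1, 2 and 3. They went to 2223, 1059 and 585 without stearic acid replicates 1, 2 and 3. Bcl2a1a passed in 4 of the 6 such fits and failed with vehicle replicate 2 or 3 dropped (limma adjusted p of at most 0.057). Bmf, a BH3-only gene released by loss of attachment, had the largest difference of the tested family genes that did not pass, at 25.8, 20.5 and 27.3 TPM in vehicle and 23.8, 9.28 and 13.6 TPM in stearic acid. Bmf had a log2 fold change of -0.71 (SE 0.27, limma adjusted p = 0.081), and -1.05 without stearic acid replicate 1 (adjusted p = 3.9e-05). Bad (log2 0.04) and Bcl2l2, which encodes BCL-W (log2 0.08), did not pass (limma adjusted p = 0.70 and 0.51). The 6 family genes under the filter included Bik, at 0.749 ± 0.190 and 0.763 ± 0.139 TPM in vehicle and stearic acid (SD, n = 3 per group), while Bcl2l10 was listed at 0 in every library.

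**Figure D4:**
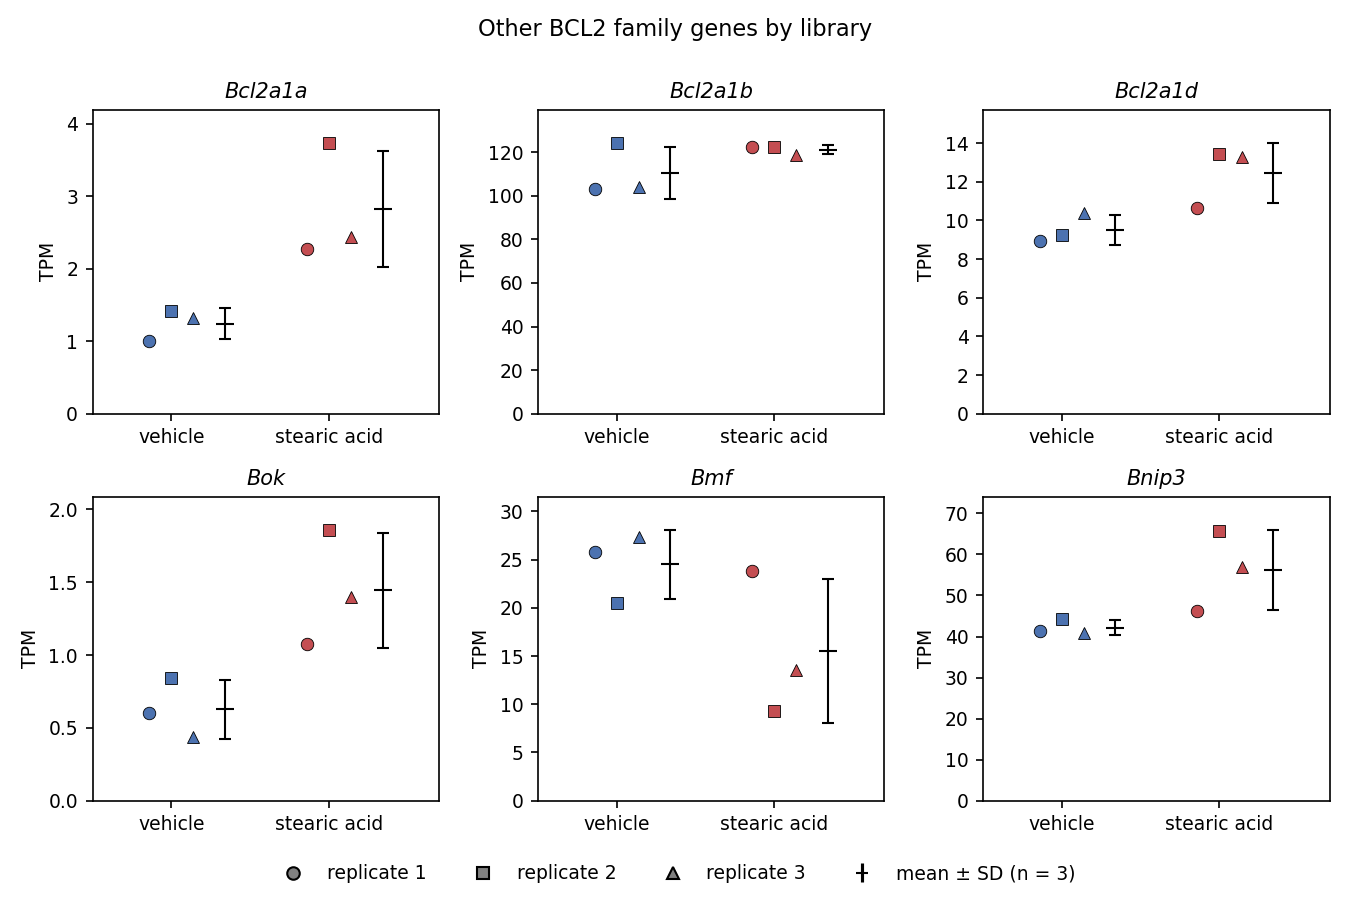
TPM by library of the family genes that passed and of Bcl2a1b and Bmf, with symbols for the replicate number, mean ± SD of 3 libraries and axes from 0. Bcl2a1a, Bcl2a1d, Bok and Bnip3 do not overlap between groups, and Bmf in stearic acid replicate 1 sits at 23.8 TPM, among the vehicle libraries.

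The A1 copies need care because they are near-identical, which the counting may not resolve. The GENCODE M21 transcripts of Bcl2a1a (819 bases) and Bcl2a1b (817 bases) are identical over 97.9% of their alignment, and Bcl2a1d (863 bases) matches them over 93.7% and 93.9%. Bcl2a1b carried 87.7% to 92.1% of the summed TPM of the 3 copies. It was at 103, 124 and 104 TPM in vehicle and at 122, 122 and 119 TPM in stearic acid, and did not pass (log2 0.13, limma adjusted p = 0.25). Summed, the 3 copies were at 121 ± 11.9 TPM in vehicle and 136 ± 2.80 TPM in stearic acid (SD, n = 3 per group), with a log2 fold change of 0.17 that did not pass (limma adjusted p = 0.14). The rises of Bcl2a1a and Bcl2a1d are thus small parts of a total whose difference did not pass.

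The start regions of the 3 copies are shown because 2 of them rose and the third did not pass, although all 3 hold the composite core and the AP-1 pattern. Capitals mark the same patterns as above.
Bcl2a1a, chr9:88956670-88956939, plus strand: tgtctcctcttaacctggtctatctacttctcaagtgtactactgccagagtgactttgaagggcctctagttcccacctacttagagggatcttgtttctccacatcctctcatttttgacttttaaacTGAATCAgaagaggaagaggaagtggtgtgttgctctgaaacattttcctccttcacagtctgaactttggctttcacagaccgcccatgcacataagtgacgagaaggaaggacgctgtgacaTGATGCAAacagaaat
Bcl2a1b, chr9:89199023-89199292, plus strand: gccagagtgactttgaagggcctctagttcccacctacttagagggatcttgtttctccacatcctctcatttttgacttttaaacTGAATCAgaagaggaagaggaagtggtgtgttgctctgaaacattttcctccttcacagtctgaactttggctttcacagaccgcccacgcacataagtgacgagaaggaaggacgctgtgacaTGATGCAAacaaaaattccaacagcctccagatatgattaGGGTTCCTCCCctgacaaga
Bcl2a1d, chr9:88731831-88732100, minus strand: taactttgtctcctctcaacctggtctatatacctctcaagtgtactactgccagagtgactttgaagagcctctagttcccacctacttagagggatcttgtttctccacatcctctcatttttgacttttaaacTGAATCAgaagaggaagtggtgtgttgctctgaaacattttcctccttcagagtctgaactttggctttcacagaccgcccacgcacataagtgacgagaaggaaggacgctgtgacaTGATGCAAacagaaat

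In each copy the CHOP and ATF4 composite core reads TGATGCAA and the AP-1 pattern reads TGAATCA. The composite core begins at base 5 after the RefSeq start in Bcl2a1a and Bcl2a1d and 40 bases before it in Bcl2a1b, whose start is annotated further downstream. The AP-1 pattern begins 120, 164 and 114 bases before the start in Bcl2a1a, Bcl2a1b and Bcl2a1d. The Bcl2a1b window, which reaches further past the composite core, also holds 2 overlapping NF-kB matches, where the windows of Bcl2a1a and Bcl2a1d hold 0. As copies of each other these are not independent matches.

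Downstream of the family, 6 genes passed. Of 19 tested genes of the apoptosome, caspases and their inhibitors, 1 rose and 5 fell, and the other 13 did not pass, where 12.8% of all tested genes passed as higher and 11.9% as lower. The list's median log2 fold change was -0.16. The fallers included Casp2, Casp6, Birc2 and Birc5, and the riser was Endog, a mitochondrial nuclease, from 2.16 ± 0.347 to 3.33 ± 0.459 TPM (SD, n = 3 per group). Casp2, a caspase activated by the PIDDosome, was at 59.5, 55.4 and 64.3 TPM in vehicle and at 48.8, 35.4 and 43.4 TPM in stearic acid (log2 -0.49, SE 0.12, limma adjusted p = 0.019). All its stearic acid libraries lay below every vehicle library. Casp6, an effector caspase, fell by 0.36 on the log2 scale (limma adjusted p = 0.025).

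The fallers also held inhibitors. Birc5, which encodes survivin and is expressed in dividing cells, fell from 129.8 ± 6.72 to 89.4 ± 10.4 TPM (SD, n = 3 per group; log2 -0.54, limma adjusted p = 0.0071), and Birc2, which encodes cIAP1, fell by 0.41 on the log2 scale (adjusted p = 0.031). Apaf1 (log2 -0.27), the scaffold of the apoptosome, and Casp9 (log2 0.04), its caspase, did not pass (limma adjusted p = 0.092 and 0.68). Cycs, which encodes cytochrome c, did not pass either (log2 0.31, limma adjusted p = 0.18). Dropping any single vehicle library left 1 fall, and dropping stearic acid replicate 2 or 3 left 5 and 2. Over all tested genes the falls went from 1374 to 389, 166 and 142 without vehicle replicates 1, 2 and 3. Without stearic acid replicates 2 and 3 they went to 938 and 420. Dropping stearic acid replicate 1 gave 10 falls in the list, with 2 rises. In that fit 24.1% of all tested genes were lower and 19.2% higher. Birc5 was lost without vehicle replicate 2 alone (limma adjusted p = 0.052). Endog was lost when vehicle replicate 2, vehicle replicate 3 or the third stearic acid library was dropped (adjusted p up to 0.11), and Endog overlaps Spout1, at a mean of 30.7 TPM.

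Of 12 tested genes of death receptors and necroptosis, 4 fell and 0 rose by limma, against 11.9% and 12.8% of all tested genes, with a median log2 fold change of -0.07. Without stearic acid replicate 1 the counts were again 4 and 0, against 24.1% and 19.2%. Fasl, the untested gene of the list, was listed at 0 in every library. Tnfsf10, which encodes the death ligand TRAIL and is also an interferon target, was at 2.65, 2.81 and 2.70 TPM in vehicle and at 1.49, 1.06 and 1.39 TPM in stearic acid (log2 -0.69, SE 0.10, limma adjusted p = 0.0043). Leaving out any single library kept its call (adjusted p up to 0.040). Ripk3, the kinase that starts necroptosis, fell from 67.7 ± 2.81 to 53.2 ± 1.77 TPM (SD, n = 3 per group; log2 -0.34, limma adjusted p = 0.011), while Mlkl, its pore-forming substrate, did not pass (log2 -0.05). Fas, the death receptor (log2 -0.44), and Cyld, a deubiquitinase of RIPK1 (log2 -0.35), had limma adjusted p-values of 0.039 and 0.042. In the leave-one-out fits Fas and Cyld passed without stearic acid replicate 1 alone (adjusted p up to 0.13 and 0.15), and Ripk3 was lost without vehicle replicate 1 or 3 (adjusted p up to 0.057).

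Among transcription factors known to control BH3-only genes, 4 of 8 tested rose and 0 fell by limma, against 12.8% and 11.9% of all tested genes, with a median log2 fold change of 0.25. As the list was chosen with earlier results of these data known, no enrichment can be read from that count. Without stearic acid replicate 1 the counts were 4 and 1, against 19.2% and 24.1%. Ddit3, which encodes CHOP, was at 23.4, 20.7 and 21.3 TPM in vehicle and at 55.2, 81.7 and 63.0 TPM in stearic acid (log2 1.55, SE 0.13, limma adjusted p = 0.00031). Atf4 was at 155, 158 and 145 TPM in vehicle and at 268, 438 and 346 TPM in stearic acid (log2 1.17, SE 0.15, limma adjusted p = 0.0022). In both genes replicate 1 was the lowest stearic acid library but lay far above vehicle, unlike in Bcl2 and Bcl2l11, and both calls held whichever library was dropped. Ddit3 overlaps Mbd6 and Mars1, at means of 41.2 and 42.9 TPM. The other risers were Jun (log2 0.43) and Myc (log2 1.19), with limma adjusted p-values of 0.020 and 0.023. Myc was at 18.8, 52.7 and 37.2 TPM in stearic acid replicates 1 to 3, against 14.1 ± 1.71 TPM in vehicle (SD, n = 3).

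Jun was lost when vehicle replicate 2, vehicle replicate 3 or the third stearic acid library was dropped (limma adjusted p up to 0.087). Myc was lost when the third stearic acid library or any of the vehicle libraries was dropped (limma adjusted p up to 0.10). Trp73, a p53 relative, was under the filter, at up to 0.00936 TPM. Trp53, which encodes p53, did not pass (log2 0.07, limma adjusted p = 0.50), and neither did Foxo3, at 42.4, 35.5 and 44.7 TPM in vehicle and 40.5, 25.9 and 31.1 TPM in stearic acid (log2 -0.34, limma adjusted p = 0.13). Without stearic acid replicate 1 Foxo3 passed as lower (adjusted p = 0.0016). Bbc3, Pmaip1 and Bcl2l11, which CHOP, p53 or FOXO factors can raise, were not called higher in any fit run. Of 10 genes of protein turnover and of partners in the outer membrane, 0 passed by limma with all 6 libraries, where 24.7% of all tested genes passed. The median log2 fold change of the 10 was 0.09. These include Huwe1 (log2 -0.15) and Usp9x (log2 -0.14), which remove and spare MCL-1, and Vdac2 (log2 0.17), a channel that holds BAK. Vdac2 and Ywhaz, a 14-3-3 protein that binds BAD, passed as higher without stearic acid replicate 1, where 19.2% of all tested genes did.

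**Figure D5:**
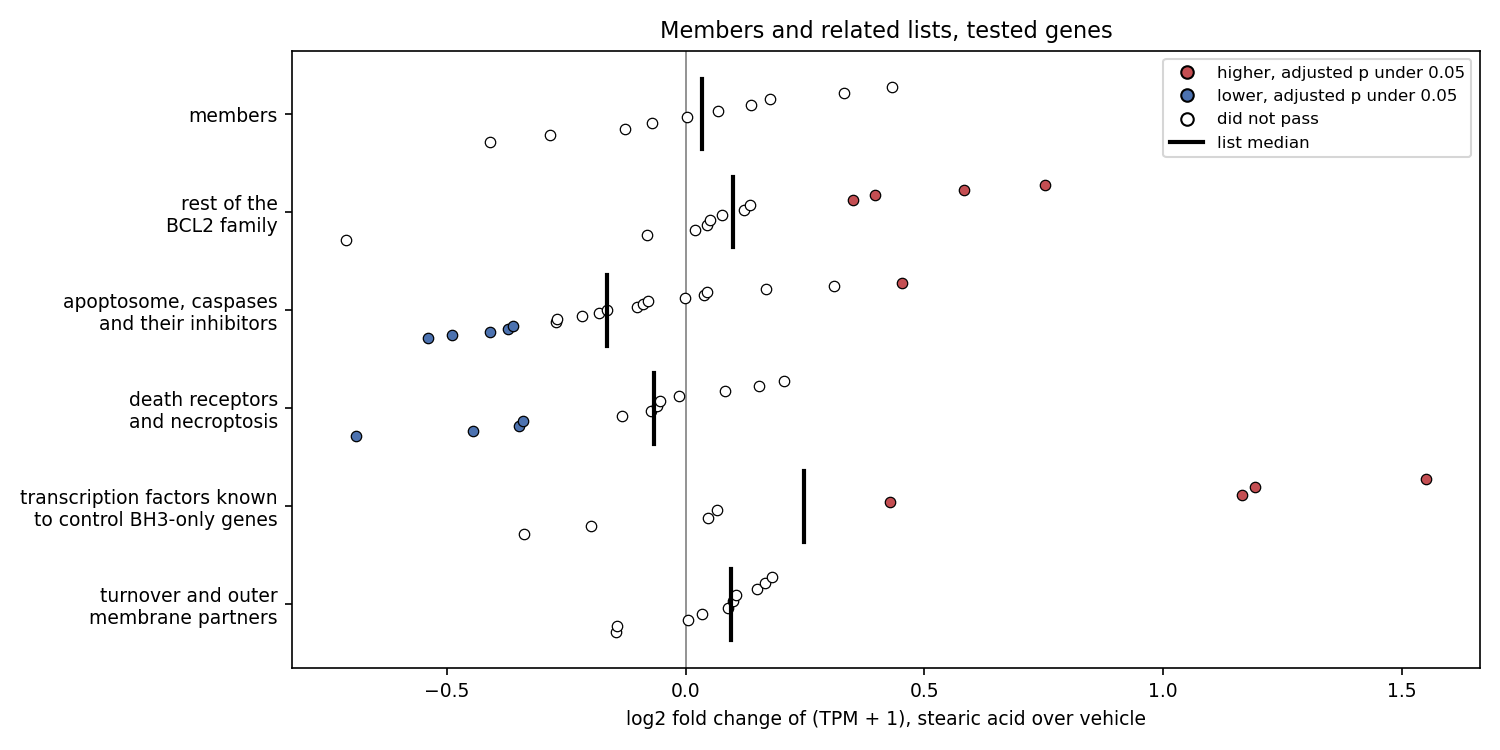
Log2 fold change of (TPM + 1), stearic acid over vehicle, of each tested gene in the members and the 5 related lists, 1 point per gene; filled points passed the limma test at an adjusted p under 0.05, and bars are list medians. No point is filled among the members or the turnover list, and the highest points are Ddit3, Myc and Atf4 at 1.55, 1.19 and 1.17.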

How the data were processed

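Each library's table gives TPM and RPKM by gene, both made by the authors, per the file headers. The submitters' processing notes name DRAGEN, with no version, and GRCm38 and mm10. For annotation, counting rule and use of strand: not given in the sources used here. Gene numbers matched RefSeq GRCm38.p6 for 35337 of 36333 genes (97.3%), and 27 names turned into dates were replaced through them where matched. No counts were rebuilt. Depth came from the steps of RPKM values in single-exon genes, of which 72.4% to 76.9% gave whole reads within 0.02, and 1 TPM corresponds to 19.1 to 27.7 reads per kilobase.

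limma 3.58.1 (R 4.3.3) was fitted on log2(TPM + 1), which understates changes of low genes, with treatment as the only term. TPM is a share of the library. Alternatives were a pseudocount of 0.1, no filter, RPKM, median-of-ratios scaling, a constant prior, a replicate block, and leaving out each library in turn. The members and lists were chosen with earlier results of these data known. All 10 members are named; from other lists all called genes were to be named where 6 or fewer were called. Other genes named were chosen after their values were seen. Protein sequences were not used here. Some genes of the related lists are counted but not reported here by name.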

Additional observations from a re-analysis of the deposited data

How the results depend on the processing

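Over the 10 members and 12 alternatives, 105 of 120 values kept their sign and their side of the threshold, 11 passed where they had not, and 4 changed sign without passing. Leaving out 1 library at a time moved members called higher from 0 to between 0 and 3 and members called lower from 0 to between 0 and 3. It moved all genes called higher from 1482 to between 384 and 2223, and lower from 1374 to between 142 and 2787. Among these fits Bax ranged from -0.0196 to 0.0427 and Bbc3 from -0.373 to 0.0909 on the log2 scale. With no filter on low values 21632 genes were tested, of which 672 were called higher and 355 lower. Why these counts were smaller was not tested. Pmaip1 made 1 member called lower with RPKM and 1 with median-of-ratios scaling; the cause was not tested. The replicate block gave 2 members called higher (Bcl2 and Bcl2l1) and 1 lower (Pmaip1), with 1641 and 1997 genes in all. Same-numbered libraries share only a number: their deviations correlated at 0.07, 0.288 and 0.039, and not every library correlated best with its own number. Summing the Bcl2a1 copies, an alternative chosen after seeing the data, took the log2 fold change of 0.75 for Bcl2a1a to 0.17 (limma adjusted p = 0.14). With 3 libraries a group, the 95% interval of Bbc3 still holds changes of -0.59 to 0.33.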
